A study of Mus musculus with 15 samples.

Results

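The interaction of human IAPP and human calpastatin was measured gene by gene in 12 of the 15 bulk islet libraries of the series. The 12 libraries form 4 groups of 3. The WT mice carried no transgene, hCAST mice carried human CAST, hIAPP mice human IAPP, and hIAPP_hCAST mice both. All were FVB/NJ mice aged 9 to 10 weeks. Per the labels, human IAPP was driven by the insulin II promoter, as was human CAST in hCAST mice, while for the double transgenic mice human CAST is only said to be under insulin. Transgenic line, litter and whether animals were pooled are not given in the sources used here, so the p-values measure the spread between these libraries. The interaction is the hIAPP_hCAST minus hCAST difference less the hIAPP minus WT difference. A value of 0 means that the human IAPP difference was equally large without and with the calpastatin transgene, on the log2 scale. A negative value for a gene that was higher with human IAPP means that the difference was smaller with calpastatin.

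IAPP, islet amyloid polypeptide, is a beta-cell hormone stored and released with insulin. The human peptide can form toxic oligomers and amyloid, which rodent IAPP does not. Calpains are cysteine proteases activated by calcium, and calpastatin is their inhibitor inside the cell. The comparison asks whether the islet response to human IAPP differs in mice that also carry the human CAST transgene. Mouse Cast was read in all groups, so with and without calpastatin refers here to the human transgene.

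Islet hormone genes were high in all 12 libraries. Ins1 and Ins2 together held 15.8% to 16.3% of the non-ribosomal counts in WT, 12.2% to 14.1% in hCAST, 9.90% to 11.8% in hIAPP and 8.92% to 12% in hIAPP_hCAST. Library totals were 28287011 to 40191501 counts. Rn45s, Lars2 and Mir6236, which collect ribosomal reads, held 94.3% of the counts in WT 2 and 68.9% in WT 3, which kept 1667190 and 8796210 other counts. They held 9.40% in WT 1 and at most 7.63% in the other 9 libraries. The median SD of log2 CPM, the TMM-scaled count relative to library size, over 9354 genes was 0.160 in WT, 0.0781 in hCAST, 0.0849 in hIAPP and 0.124 in hIAPP_hCAST. Acinar genes, from the enzyme-secreting tissue around islets, held 1.95% to 8.19% of the other counts in WT, 5.27% to 10.9% in hCAST, 7.86% to 15.3% in hIAPP and 1.27% to 15.9% in hIAPP_hCAST. The lowest acinar value of all 12 libraries was that of hIAPP_hCAST 3.

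No gene passed the test of the interaction. Of 15421 tested genes, 0 were called at an adjusted p below 0.05 (0%; edgeR quasi-likelihood test, Benjamini-Hochberg), and the smallest adjusted p was 0.498. At an unadjusted p below 0.05 there were 1156 genes, or 7.5% of those tested, with 506 positive (3.28%) and 650 negative (4.22%). This balance depended on filter and scaling. A filter of a mean CPM of at least 1 gave 556 positive and 532 negative, and upper quartile scaling gave 372 and 733. Over all tested genes, at any p, 7496 interactions were positive and 7925 negative. DESeq2 called 24 genes on the same counts, 4 positive and 20 negative, and limma-voom with sample weights called 0. The median interaction over all tested genes was -0.01 on the log2 scale. The 95% confidence interval of a gene reached a median of 0.42 to either side of its estimate before adjustment. After adjustment none of any size passed in edgeR, the -1.83 of Fn1 among them. Of the genes described below, DESeq2 called 14, at adjusted p of 0.00528 for Sdc1 and Fn1, 0.00802 for Loxl1 and Zfp871, 0.0182 for Ecm1 and Mgp, 0.0236 for Cxcl12, 0.0247 for Nnat, Vgf, C3 and Col5a1, 0.0317 for Ikzf2, 0.0321 for Apoe and 0.049 for Ms4a7. Calls below are those of edgeR over all 12 libraries unless a sentence says otherwise, and a gene's interaction is given as a value that did not pass.

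The human IAPP difference itself was called in 1343 genes without calpastatin (8.71% of those tested; 715 higher, 4.64%, and 628 lower, 4.07%) and in 65 with it (0.422%; 43 higher, 0.279%, and 22 lower, 0.143%). The first count was 589 without hIAPP 2, 2042 without hIAPP_hCAST 3 and 185 without WT 2 and WT 3. The second was 19 without hCAST 2, 239 without hIAPP_hCAST 3, 196 with DESeq2 and 176 with voom. With the mean log2 CPM of acinar genes as a covariate it was 255. These counts do not show that the effect of any gene differed between the backgrounds, which is what the interaction tests. Averaged over both backgrounds, 1596 genes were called (10.3%), of which 888 were higher (5.76%) and 708 lower (4.59%). Among the 888 the median log2 difference was 0.90 without calpastatin and 0.42 with it. Among the 708 it was -0.40 and -0.19. Both sets were chosen on the average of the 2 differences, and their values on each background are a description. The numbers in the sample titles were lower in all WT and hCAST libraries than in all hIAPP and hIAPP_hCAST libraries. Every human IAPP difference here and below is therefore also a difference between these ranges of numbers. The part of human IAPP apart from whatever goes with the numbers was not tested.

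**Figure D1:**
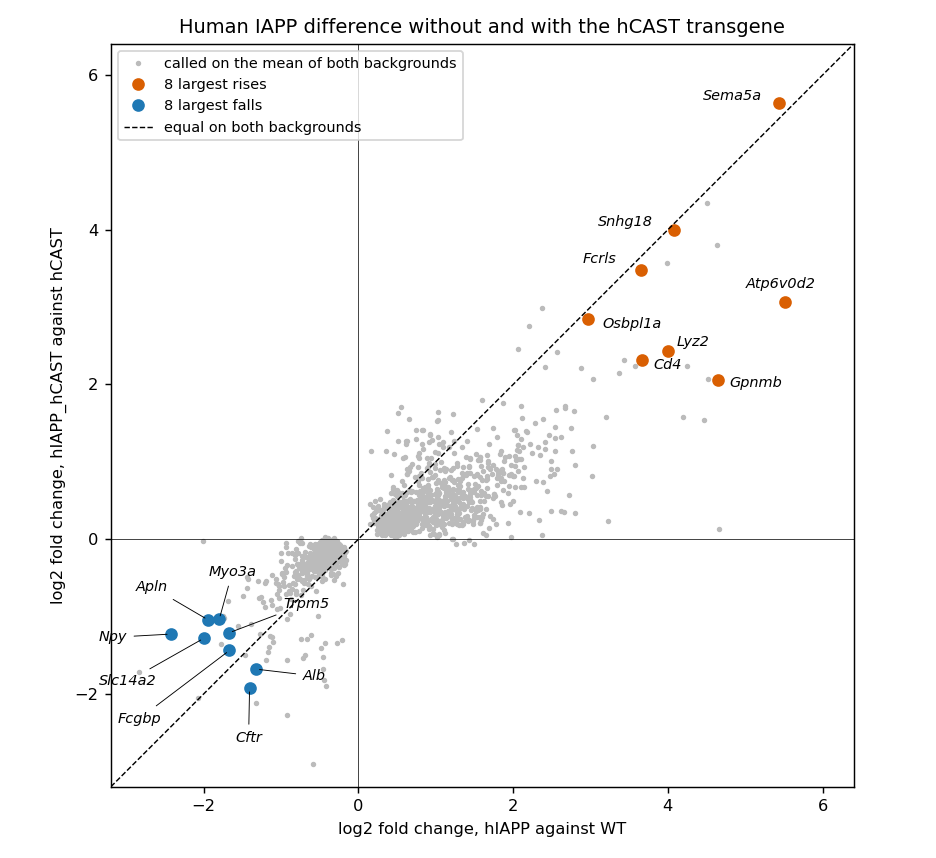
Log2 fold change of each gene called on the mean human IAPP effect, with hIAPP against WT on the horizontal axis and hIAPP_hCAST against hCAST on the vertical axis. Each grey point is 1 gene, the coloured points are the 8 largest rises and 8 largest falls of the mean effect, and the dashed line marks equal differences. Sema5a, Snhg18, Osbpl1a and Fcrls lie near the line, and Gpnmb, Lyz2, Cd4 and Atp6v0d2 lie below it.

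The 5 negative interactions with the smallest p were Sdc1, Loxl1, Ecm1, Fn1 and Cxcl12, genes of the extracellular matrix, the cell surface and chemokine signalling. The region before the annotated start was found for 3 of the 5 among the RefSeq promoter sequences (GRCm38.p6). They are shown because these genes head the list and had their highest values in the same 3 libraries. Capitals mark matches on either strand to the GC box GGGCGG, the AP-1 motif TGANTCA and the TATA box TATAAA. The Sdc1 stretch covers chr12:8771146-8771322 (plus strand) and stops where the GENCODE gene begins. The Ecm1 stretch covers chr3:95739570-95739819 (minus strand), and that of Cxcl12 covers chr6:117168285-117168534 (plus strand).
Sdc1: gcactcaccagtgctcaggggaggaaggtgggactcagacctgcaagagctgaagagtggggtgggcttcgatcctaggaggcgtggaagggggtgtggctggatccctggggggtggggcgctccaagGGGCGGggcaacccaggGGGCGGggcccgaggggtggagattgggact
Ecm1: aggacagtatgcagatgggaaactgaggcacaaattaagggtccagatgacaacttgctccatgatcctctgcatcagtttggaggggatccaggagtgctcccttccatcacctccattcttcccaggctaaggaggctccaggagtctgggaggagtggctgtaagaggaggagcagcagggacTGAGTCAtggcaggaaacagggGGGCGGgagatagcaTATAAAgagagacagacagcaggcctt
Cxcl12: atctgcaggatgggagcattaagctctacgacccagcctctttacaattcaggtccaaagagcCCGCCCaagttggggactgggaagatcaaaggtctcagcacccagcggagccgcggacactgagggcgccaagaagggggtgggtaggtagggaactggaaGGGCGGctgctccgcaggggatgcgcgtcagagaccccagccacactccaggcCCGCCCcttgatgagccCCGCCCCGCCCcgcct

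Sdc1 held 2 GC boxes in 177 bases, Cxcl12 held 5 in 250 bases, of which the last pair overlap, and Ecm1 held 1 of each motif in 250 bases. Of 32851 RefSeq promoters of 250 bases, 32.7% held a GC box, 6.75% the AP-1 motif and 12.4% the TATA box. These matches describe the letters and are not evidence of binding.

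Sdc1 encodes syndecan-1, a heparan sulfate proteoglycan of the cell surface (chromosome 12, 8771323 to 8793715, GRCm38). Its CPM were 5.33, 6.90 and 7.40 in WT, 7.65, 8.89 and 8.44 in hCAST, 13.9, 14.2 and 15.1 in hIAPP, and 8.15, 9.56 and 7.34 in hIAPP_hCAST. The 3 hIAPP libraries were above all 9 others, and hIAPP_hCAST overlapped with hCAST. The human IAPP difference was 1.20 ± 0.158 (SE, log2) without calpastatin and 0.00 ± 0.135 with it. The interaction was -1.20 ± 0.207, with a 95% interval of -1.65 to -0.76 (adjusted p = 0.498, edgeR).

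Loxl1 encodes an enzyme of the lysyl oxidase family, which cross-links elastin and collagen (chromosome 9, 58287738 to 58313186). It had 3.97, 6.27 and 5.08 CPM in WT, 4.63, 5.36 and 5.58 in hCAST, 13.9, 13.6 and 11.5 in hIAPP, and 4.66, 6.51 and 3.72 in hIAPP_hCAST. Again the hIAPP libraries alone stood above the rest, at an interaction of -1.56 ± 0.292. Between hIAPP_hCAST and hIAPP, a comparison that used the same libraries, Loxl1 was lower by a called difference of -1.39 ± 0.188 (adjusted p = 0.0105, edgeR). The call ended without hIAPP 1 (adjusted p = 0.0724) or hIAPP 2 (0.0611).

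Fn1 encodes fibronectin, a matrix glycoprotein to which cells attach (chromosome 1, 71585520 to 71653200). Its CPM were 2.67, 1.88 and 4.53 in WT, 3.88, 3.90 and 5.50 in hCAST, 23.5, 23.6 and 19.8 in hIAPP, and 10.3, 9.87 and 5.81 in hIAPP_hCAST. Here hIAPP_hCAST lay between hIAPP and the groups without human IAPP, with no overlap on either side. The human IAPP difference was 2.80 ± 0.283 without calpastatin (adjusted p = 0.000204, edgeR) and 0.96 ± 0.229 with it (adjusted p = 0.117), and the interaction was -1.83 ± 0.362.

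Ecm1 encodes extracellular matrix protein 1 (chromosome 3, 95734147 to 95739569). It had 3.72, 3.14 and 3.87 CPM in WT, 4.97, 4.43 and 6.35 in hCAST, 7.80, 8.29 and 8.59 in hIAPP, and 4.0, 5.56 and 3.61 in hIAPP_hCAST, for an interaction of -1.41 ± 0.274. Cxcl12 encodes a chemokine of stromal cells that binds Cxcr4 (chromosome 6, 117168535 to 117181367). It had 20.5, 25.7 and 24.96 CPM in WT, 22.2, 22.0 and 29.97 in hCAST, 53.3, 49.7 and 57.1 in hIAPP, and 32.8, 29.1 and 22.9 in hIAPP_hCAST, for an interaction of -1.02 ± 0.213. In both genes the hIAPP libraries were the 3 highest of the 12. WT 2 kept 1667190 non-ribosomal counts, so its values for Sdc1, Loxl1, Fn1 and Ecm1 rest on few reads.

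The 5 positive interactions with the smallest p belonged to genes that were lower in hIAPP than in WT. Nnat, which encodes neuronatin, a small membrane proteolipid of endocrine and neural cells (chromosome 2, 157560078 to 157562522), had 183, 165 and 169 CPM in WT and 141, 96.6 and 105 in hCAST. It had 62.1, 54.6 and 44.2 in hIAPP and 63.3, 69.6 and 63.4 in hIAPP_hCAST. The calls on both backgrounds were falls, by 1.69 ± 0.144 without calpastatin (adjusted p = 5.52e-05, edgeR) and by 0.80 ± 0.138 with it (adjusted p = 0.0230). The second ended without WT 2, hCAST 1 or hIAPP_hCAST 1 (adjusted p of 0.0529, 0.0607 and 0.0984). The interaction was 0.89 ± 0.197 (adjusted p = 0.498), and hCAST lay below WT without overlap.

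Lancl3, a member of the lanthionine synthetase-like family (chromosome X, 9199902 to 9268085), had 21.1, 26.4 and 23.7 CPM in WT, 23.0, 22.0 and 25.4 in hCAST, 15.5, 12.5 and 12.1 in hIAPP, and 21.1, 26 and 22.1 in hIAPP_hCAST. Only the hIAPP libraries stood apart, and the difference of hIAPP_hCAST from hIAPP was called (0.79 ± 0.119, adjusted p = 0.0237, edgeR). It was not called without hIAPP 2 (adjusted p = 0.145) or hIAPP 3 (0.121). Zfp871, a zinc finger gene (chromosome 17, 32765496 to 32788287), had 157, 184 and 159 CPM in WT, 132, 124 and 122 in hCAST, 111, 103 and 104 in hIAPP, and 126, 115 and 114 in hIAPP_hCAST. WT stood highest and hIAPP lowest, with the 2 calpastatin groups between.

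Ikzf2, which encodes the transcription factor Helios (chromosome 1, 69531214 to 69687245), had 23.8, 23.2 and 26.1 CPM in WT and 17.4, 17.7 and 17.3 in hIAPP. It had 20.4, 20.7 and 19.6 in hCAST and 23.2, 20.3 and 21.2 in hIAPP_hCAST, which overlap each other. Rc3h2, which encodes roquin-2, an RNA-binding regulator of mRNA decay (chromosome 2, 37370069 to 37422903), ranged from 147 to 161 CPM in WT, 124 to 125 in hCAST, 106 to 114 in hIAPP and 109 to 131 in hIAPP_hCAST. The interactions of the positive genes were small beside those of the negative ones, at 0.44 for Rc3h2, 0.55 for Zfp871, 0.58 for Ikzf2, 0.76 for Lancl3 and 0.89 for Nnat. All 10 genes were picked for their small p, so the tight spread of their libraries is a property of that choice as well.

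**Figure D2:**
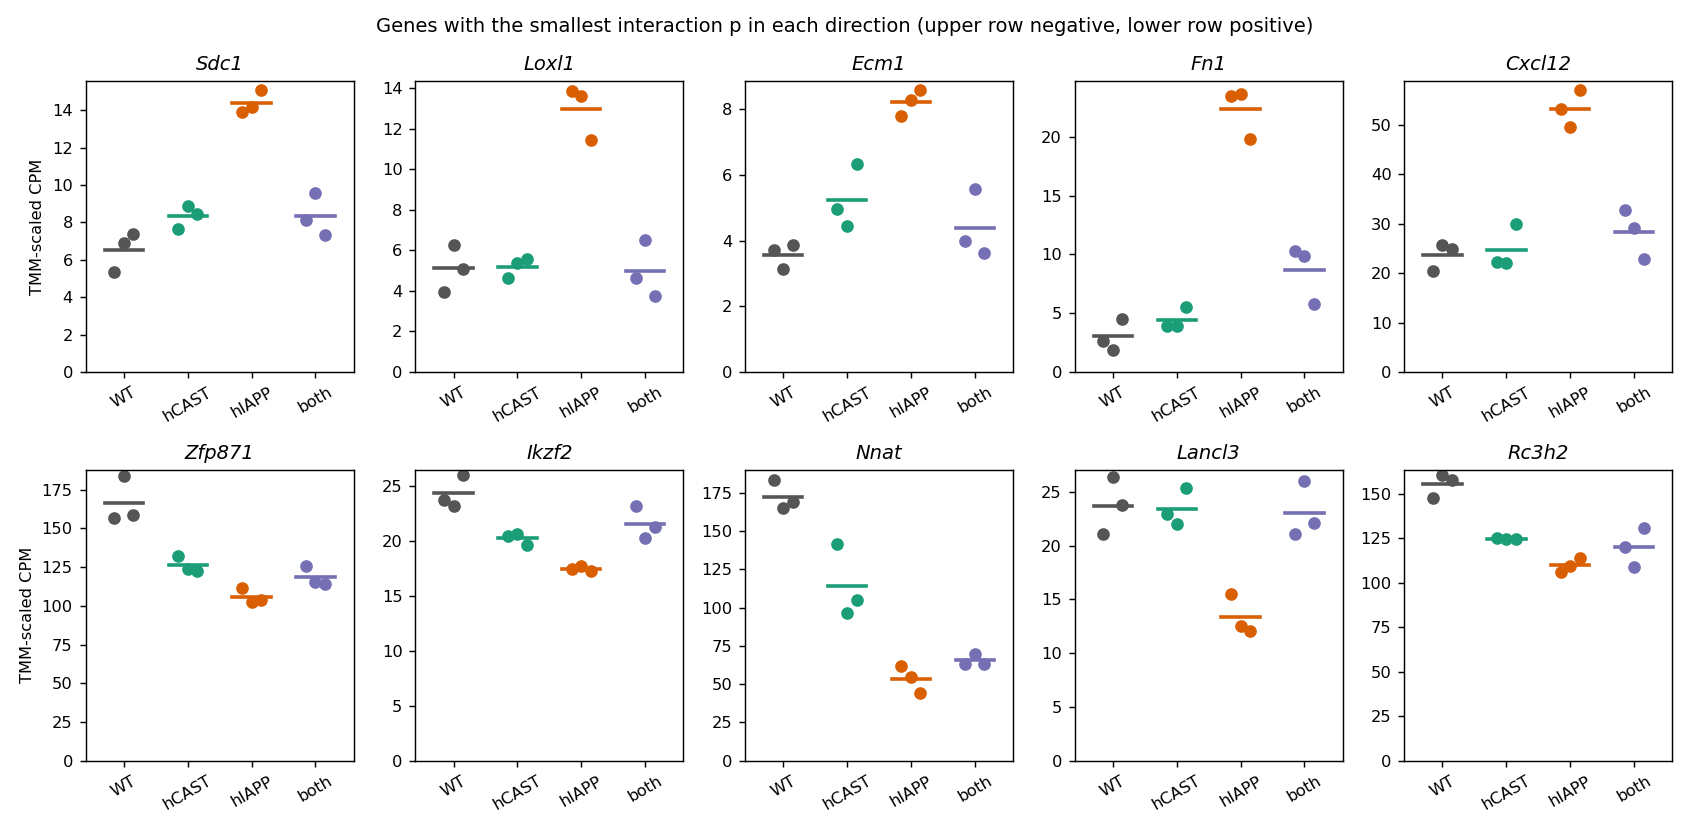
CPM in each of the 12 libraries for the 5 negative and 5 positive interactions with the smallest p, by group, with a bar at the group mean. The 3 hIAPP libraries are the highest in each of Sdc1, Loxl1, Ecm1, Fn1 and Cxcl12 and the lowest in Zfp871, Ikzf2, Nnat and Lancl3.

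Stromal and matrix genes had the most negative list median of the 33 gene lists examined, at -1.40 over 23 tested members, beside -0.01 over all tested genes. All lists were chosen with earlier results of these data known, and their members share the same libraries. Counts of members therefore describe a list and do not test it. Interactions of all 23 matrix genes were negative, against 7925 of all 15421 tested genes. Of the 23, 17 had an unadjusted p below 0.05 against 4.22% of all genes, and 0 were called. Their median human IAPP difference was 1.49 without calpastatin, where 15 members rose (4.64% of all genes), and 0.09 with it, where 0 were called. The 15 were 4 without WT 1, 5 without WT 2 and WT 3, 7 without hIAPP 1 or hIAPP 2, and 22 without hIAPP_hCAST 3, which also gave 3 rises with calpastatin. Col5a1, a fibrillar collagen chain, had 6.42, 9.41 and 14.8 CPM in WT, 11.0, 12.7 and 16 in hCAST, 33.4, 34.1 and 29.2 in hIAPP, and 13.9, 16.1 and 7.09 in hIAPP_hCAST. Its interaction was -1.82 ± 0.479, and the hIAPP libraries did not overlap with any other group. Mgp, which encodes matrix Gla protein, an inhibitor of calcification, had 105, 91.4 and 83.9 CPM in hIAPP and 56.4, 50.2 and 36.3 in hIAPP_hCAST, a called fall of 0.97 ± 0.141 (adjusted p = 0.0199, edgeR), which was not called without hIAPP 1 (adjusted p = 0.0921) or hIAPP 2 (0.0686). In WT and hCAST it lay between 29.5 and 38.2.

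The mean log2 CPM of the matrix list was 5.64, 5.50 and 5.38 in hIAPP and 4.74, 4.72 and 3.70 in hIAPP_hCAST. It was 3.75, 4.22 and 4.32 in WT and 4.11, 4.24 and 4.65 in hCAST. In bulk islets, fewer cells of a type and less RNA per cell cannot be told apart. Library hIAPP_hCAST 3 was the lowest of its group for matrix, macrophage, endothelial, duct, acinar and Schwann genes alike. Without it the matrix median was -1.11, with 18 members at an unadjusted p below 0.05, and without WT 1 the number of such members was 10. With the mean log2 CPM of acinar genes as a covariate, the median was -1.14 with 13 such members. The part of acinar content and of hIAPP_hCAST 3 in the matrix values was not tested beyond these fits.

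The human IAPP difference of macrophage genes had a median of 1.49 without calpastatin and 0.83 with it. All 21 tested macrophage genes had a negative interaction (median -0.67), 7 with an unadjusted p below 0.05 against 4.22% of all genes, and 0 were called. The median was -0.42 without hIAPP_hCAST 3, and 12 genes were past that p without hIAPP_hCAST 1. Without calpastatin 17 of the 21 rose against 4.64% of all genes, and with it 5 rose against 0.279%. The 17 were 7 without WT 2 and WT 3, and the 5 were 1 without hCAST 2, 2 without hCAST 1 and 12 without hIAPP_hCAST 3. Lyz2, a lysozyme of myeloid cells, had 13.6, 11.9 and 15.6 CPM in WT, 16.7, 17.7 and 18.1 in hCAST, 239, 252 and 185 in hIAPP, and 142, 80.5 and 60.7 in hIAPP_hCAST. It rose on both backgrounds, by 4.0 ± 0.321 and by 2.43 ± 0.273 (adjusted p = 0.000209 and 0.00532, edgeR), at an interaction of -1.57 ± 0.403 (adjusted p = 0.541). Without hIAPP_hCAST 1 the Lyz2 interaction was -1.99 and was called (adjusted p = 0.00511, edgeR), beside a range of 0.00511 to 0.954 over the alternatives.

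Ms4a7, a membrane protein of tissue macrophages, ranged from 14.7 to 16.5 CPM in hIAPP and from 7.18 to 10.6 in hIAPP_hCAST, and from 1.88 to 4.68 in the 6 libraries without human IAPP. Its interaction was -1.13 ± 0.259 on top of called rises of 2.25 and 1.12, the second not called without hCAST 2 (adjusted p = 0.0667, edgeR). Cx3cr1, the fractalkine receptor, had 36.2, 39.6 and 24.3 CPM in hIAPP and 26.8, 22.3 and 16.4 in hIAPP_hCAST, so these groups overlap. Its rise was called on both backgrounds (2.41 and 1.26). With calpastatin that call ended without WT 1, without any of the 3 hCAST libraries and without hIAPP_hCAST 1 or 2 (adjusted p of 0.0579 to 0.16, edgeR).

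The genes of lipid-laden and amyloid-associated macrophages had a median interaction of -0.79, with 18 of 18 negative and 10 at an unadjusted p below 0.05 against 4.22% of all genes. The 10 were 6 and the median -0.49 without WT 2, WT 3 and hIAPP_hCAST 3. Apoe, a lipid carrier, had 329, 346 and 408 CPM in WT, 366, 374 and 469 in hCAST, 1506, 1660.0 and 1396 in hIAPP, and 1098, 897 and 658 in hIAPP_hCAST. It rose on both backgrounds (2.07 ± 0.169 and 1.13 ± 0.164), the second not called without hCAST 1 or hCAST 2 (adjusted p of 0.0536 and 0.0589, edgeR). Its interaction was -0.94 ± 0.230. Axl, a receptor tyrosine kinase that helps clear dead cells, had 86.6, 84.2 and 81.7 CPM in hIAPP, 61.8, 59.1 and 48.5 in hIAPP_hCAST, and 38.1 to 45.9 in the other libraries. The 3 levels did not overlap, and the difference between hIAPP_hCAST and hIAPP was called, with Axl lower by a log2 value of -0.58 ± 0.0973 (adjusted p = 0.0392, edgeR). That call ended without any 1 of the hIAPP libraries (adjusted p of 0.121 to 0.167) and without WT 1, hCAST 1, hCAST 2 or hIAPP_hCAST 2 (0.0514 to 0.0688).

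Gpnmb, a glycoprotein of lysosome-rich macrophages, had 0.496, 1.88 and 1.21 CPM in WT, 0.862, 1.32 and 1.73 in hCAST, 15.1, 26.2 and 16.2 in hIAPP, and 7.79, 6.18 and 2.49 in hIAPP_hCAST. Its interaction was -2.59 ± 0.773, with a wide 95% interval of -4.30 to -0.89, and its WT counts were 16, 3 and 11 reads. Atp6v0d2, a proton pump subunit, had 2, 0 and 1 reads in WT and 1, 2 and 9 in hCAST, against 123, 142 and 94 in hIAPP and 66, 26 and 16 in hIAPP_hCAST. At so few reads the interval of its interaction ran from -5.45 to 0.55.

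Of 16 tested complement genes 15 had a negative interaction, 9 of them at an unadjusted p below 0.05 against 4.22% of all genes (median -0.72). The 9 were 5 without hCAST 3 and 4 without WT 2, WT 3 and hIAPP_hCAST 3. C3, the central component of complement, had 36.7, 19.7 and 28 CPM in hIAPP, 11.9, 15.0 and 9.00 in hIAPP_hCAST, 17.2, 16.9 and 13.1 in WT and 14.2, 18.6 and 23.9 in hCAST. Its interaction of -1.51 ± 0.380 came with values in hIAPP_hCAST that overlapped with WT and hCAST and lay below all of hIAPP. C1qb, a chain of the C1q initiator, had 34.7, 44.6 and 29.2 CPM in hIAPP and 26.5, 23.0 and 16.9 in hIAPP_hCAST (interaction -0.83 ± 0.263). Among the chemokines, 13 of 13 tested had a negative interaction (median -0.89, and -0.57 without hIAPP 1) and 3 an unadjusted p below 0.05 against 4.22%, which were 5 without hIAPP 3. Cxcl16, a scavenger receptor and chemokine of myeloid cells, was at 9.40 to 11.2 CPM in hIAPP, 5.70 to 8.06 in hIAPP_hCAST and 3.76 to 6.62 elsewhere.

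Cd79a, a chain of the B-cell receptor, went the other way. It had 35.8, 34.7 and 35.0 CPM in hIAPP_hCAST and lay between 11.5 and 20.6 in the other 9 libraries. The human IAPP difference was 0.16 ± 0.193 without calpastatin and a called 1.13 ± 0.171 with it (adjusted p = 0.00950, edgeR), for an interaction of 0.98 ± 0.257 (adjusted p = 0.510). Il7r and Cd4, also among the 5 tested lymphocyte genes, had negative interactions of -1.08 and -1.36, so the list did not move with Cd79a.

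Beta-cell identity genes had small positive interactions. Of 30 tested members 28 were positive and 2 negative, 4 had a positive interaction at an unadjusted p below 0.05 against 3.28% of all genes, and 0 were called. The 4 were 2 without hCAST 3, hIAPP 2, hIAPP_hCAST 1 or hIAPP_hCAST 3, 7 without hIAPP 1, and 8 without WT 3 or hIAPP_hCAST 2. The list median was 0.24, from a human IAPP difference of -0.43 without calpastatin, where 17 members fell against 4.07% of all genes, and -0.16 with it, where 1 fell against 0.143%. The 17 were 10 without WT 1, 11 without WT 2, 8 without WT 3, 6 without hIAPP 2 or hIAPP 3, and 5 without WT 2 and WT 3. The 1 was 2 without hIAPP 3, 3 without hIAPP_hCAST 1 and 7 with DESeq2. The median calpastatin difference of the list was -0.13 without human IAPP and 0.15 with it. Its mean log2 CPM was 8.6 to 8.7 in hCAST, below the 8.8 to 8.9 of WT. In hIAPP_hCAST it was 8.3 to 8.5, which overlapped with the 8.2 to 8.4 of hIAPP. Ins2 had 90944, 95573 and 81518 CPM in WT, 72009, 70188 and 63369 in hCAST, 57978, 54569 and 51060 in hIAPP, and 55630, 47421 and 52828 in hIAPP_hCAST. The groups with human IAPP overlap with each other, while hCAST lies between them and WT. The Ins2 interaction was 0.31 ± 0.141 (95% interval 0.01 to 0.61, adjusted p = 0.656, edgeR). Ins1 gave 0.22 ± 0.143, with levels of 46797 to 58950 CPM in both human IAPP groups.

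Nkx2-2, a transcription factor of beta-cell identity, had 64.2, 80.3 and 61.4 CPM in WT, 50.6, 45.8 and 39.2 in hCAST, 47.7, 57.2 and 45.5 in hIAPP, and 48.1, 41.6 and 54.1 in hIAPP_hCAST. Only WT stood apart in these values, and the interaction was 0.50 ± 0.184. Syt4, a synaptotagmin of secretory granules, had 135, 134 and 135 CPM in hIAPP, 148, 164 and 141 in hIAPP_hCAST, 156, 159 and 156 in WT and 151, 142 and 152 in hCAST. In this gene hIAPP was the group apart (interaction 0.24 ± 0.0967). Prlr, the prolactin receptor, ranged from 375 to 407 CPM in WT, 263 to 315 in hCAST, 268 to 314 in hIAPP and 228 to 400 in hIAPP_hCAST, which covered all the others but the top of WT.

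Mouse Iapp had 34367, 62239 and 33726 CPM in WT and 32624 to 36048 in the 9 other libraries. Its interaction of 0.37 ± 0.256 was 0.02 without WT 2, the library with the fewest non-ribosomal counts, and -0.01 without WT 2, WT 3 and hIAPP_hCAST 3. Mouse Cast lay between 27.8 and 32.0 CPM in all 12 libraries (interaction 0.10 ± 0.103). Neither gene was taken as a measure of the human transgenes, whose reads were not analysed here. Whether some human reads were counted under the mouse genes was not tested. Gcg (glucagon, -0.08 ± 0.124), Sst (somatostatin, 0.05 ± 0.152) and Ppy (pancreatic polypeptide, 0.26 ± 0.451) had intervals that included 0.

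The 16 tested members of the calpain system itself, among them calpains, their small subunit Capns1, Cast and several substrates, split into 10 positive and 6 negative with a median of 0.04, and 0 reached an unadjusted p below 0.05. Their interactions ran from -0.92 to 0.23. The lowest was that of Capn6, an unconventional calpain, at -0.92 ± 0.457, with 0.663 to 2.45 CPM in WT, 2.23 to 2.62 in hCAST, 1.28 to 1.74 in hIAPP and 1.01 to 1.09 in hIAPP_hCAST. Capns1 had 128, 164 and 135 CPM in WT, 115, 125 and 120 in hCAST, 131, 123 and 114 in hIAPP, and 118, 125 and 113 in hIAPP_hCAST. The hIAPP libraries overlap with each other group, with an interaction of 0.18 ± 0.126.

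Vgf, a secreted neuroendocrine precursor in the granule list, had 19.2, 15.7 and 23.5 CPM in WT, 29.9, 24.9 and 27 in hCAST, 37.8, 39.6 and 48.2 in hIAPP, and 30.4, 33.3 and 32.6 in hIAPP_hCAST, 4 levels with no overlap. Its interaction was -0.81 ± 0.173, the only negative one of the list at an unadjusted p below 0.05, where 18 of 21 were positive (median 0.11). Aldh1a3, a retinal dehydrogenase linked to beta-cell dedifferentiation, had 65.1, 87.3 and 122 CPM in hIAPP, 39.3, 30.2 and 44.9 in hIAPP_hCAST and 4.39 to 19.6 elsewhere. Its interaction was -1.30 ± 0.544 (95% interval -2.52 to -0.08), and ran from -2.07 to -0.99 when 1 library was left out. In the dedifferentiation list 9 of 11 tested genes were negative, against 7925 of all 15421 tested genes. Of the 11, 2 were negative at an unadjusted p below 0.05 against 4.22% of all genes. The list median was -0.50, and ran from -0.77 (without WT 1) to -0.389 over the alternatives.

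Of the 32 lists besides sex-linked genes, 28 had a negative median. Some of these turned positive in at least 1 alternative. The highest were 0.007 for the unfolded protein response, 0.0454 for interleukin-1 and NF-kB, 0.0375 for hypoxia and 0.0243 for proteasome genes. The MHC class II, acinar, ribosomal protein, delta and PP cell and respiratory chain medians also changed sign. Of the positive medians, those of heat shock chaperones and the calpain system fell to -0.0218 and -0.0312. Median interactions were -0.08 for 25 genes of the unfolded protein response, -0.06 for 23 genes of interleukin-1 and NF-kB signalling, -0.04 for 18 p53 and apoptosis genes, -0.01 for 22 hypoxia and glycolysis genes, -0.07 for 18 proteasome genes, -0.19 for 17 genes of the Nrf2 oxidative stress response, of which 13 were negative, and 0.15 for 14 heat shock chaperones. Of the p53 genes 3 of 18 were negative at an unadjusted p below 0.05 against 4.22% of all genes, among them Gdf15, a stress-induced cytokine, at -1.55 ± 0.538. Without WT 1 the 3 became 1. Tnfrsf1a, the main receptor of tumour necrosis factor, had 24.1, 22.7 and 25.1 CPM in hIAPP, 18.8, 17.5 and 15.1 in hIAPP_hCAST and 14.4 to 18.0 in the others, an interaction of -0.61 ± 0.157. Ctsd, a lysosomal protease, had 705, 906 and 692 CPM in hIAPP and 699, 597.3 and 512 in hIAPP_hCAST, which overlap (interaction -0.51 ± 0.173). Immediate-early genes, which respond within minutes to stimulation and to handling of tissue, had a median of -0.57 with 17 of 19 negative, and cell cycle genes one of -0.48 with 23 of 25 negative. Over the alternatives these medians ran from -0.90 to -0.38 and from -0.72 to -0.32. Of all 15421 tested genes, 7925 were negative. Only 2 of the 19 and 1 of the 25 were negative at an unadjusted p below 0.05, against 4.22% of all genes.

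**Figure D3:**
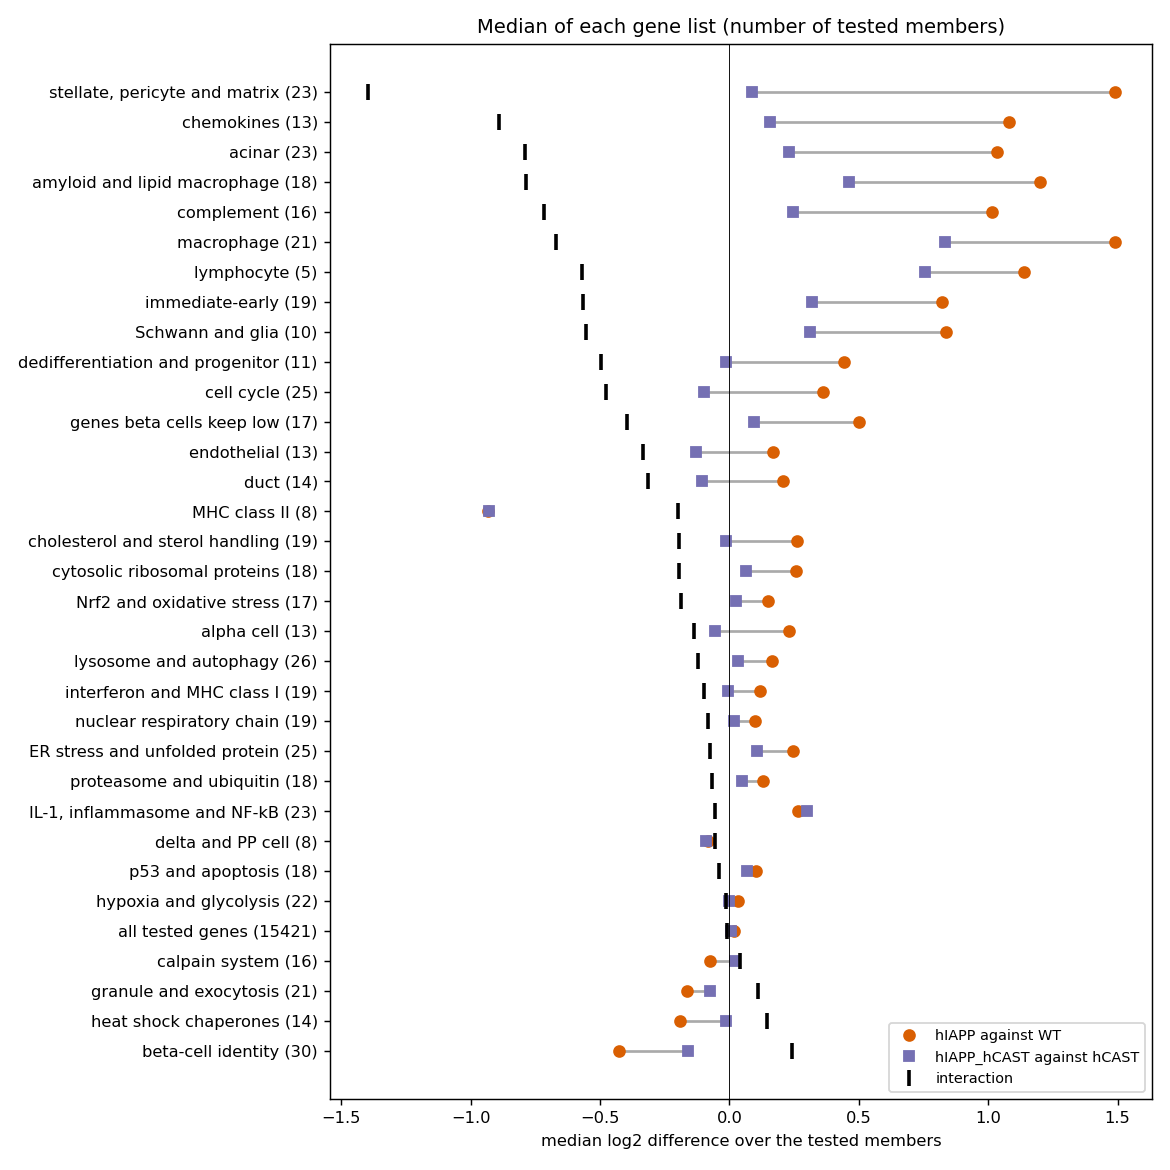
Median log2 difference over the tested members of each gene list (number in brackets) for hIAPP against WT (circles), hIAPP_hCAST against hCAST (squares) and the interaction (black ticks). Tick positions run from -1.40 for the matrix list to 0.24 for beta-cell identity, and all tested genes lie at -0.01.

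Acinar genes also had negative interactions in 23 of 23 tested members (median -0.79), with 0 at an unadjusted p below 0.05. Their mean log2 CPM ran from 7.76 to 9.84 in WT, 9.17 to 10.2 in hCAST, 9.68 to 10.8 in hIAPP and 7.10 to 10.8 in hIAPP_hCAST, so that all groups overlap. The acinar median was 0.44 without WT 2, WT 3 and hIAPP_hCAST 3, and ran from -1.72 to -0.28 when 1 library was left out. Endothelial genes had a median of -0.33, with 12 of 13 negative and 3 at an unadjusted p below 0.05 against 4.22% of all genes. With the mean log2 CPM of acinar genes as a covariate the median was -0.20 and with voom -0.19. Without hIAPP_hCAST 3 it was -0.17 with 1 such gene, without WT 1 there was also 1, and without hIAPP_hCAST 1 there were 7. Eng, the vascular receptor endoglin, had 39.9, 47.0 and 37.7 CPM in hIAPP and 28.3, 25.1 and 20.4 in hIAPP_hCAST, a called difference of -0.76 ± 0.124 (adjusted p = 0.0368, edgeR). That call ended without any 1 of the hIAPP libraries (adjusted p of 0.0722 to 0.171) and without WT 1, WT 2 or hIAPP_hCAST 2 (0.0514 to 0.0638). In WT and hCAST it lay between 28.5 and 37.3.

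**Figure D4:**
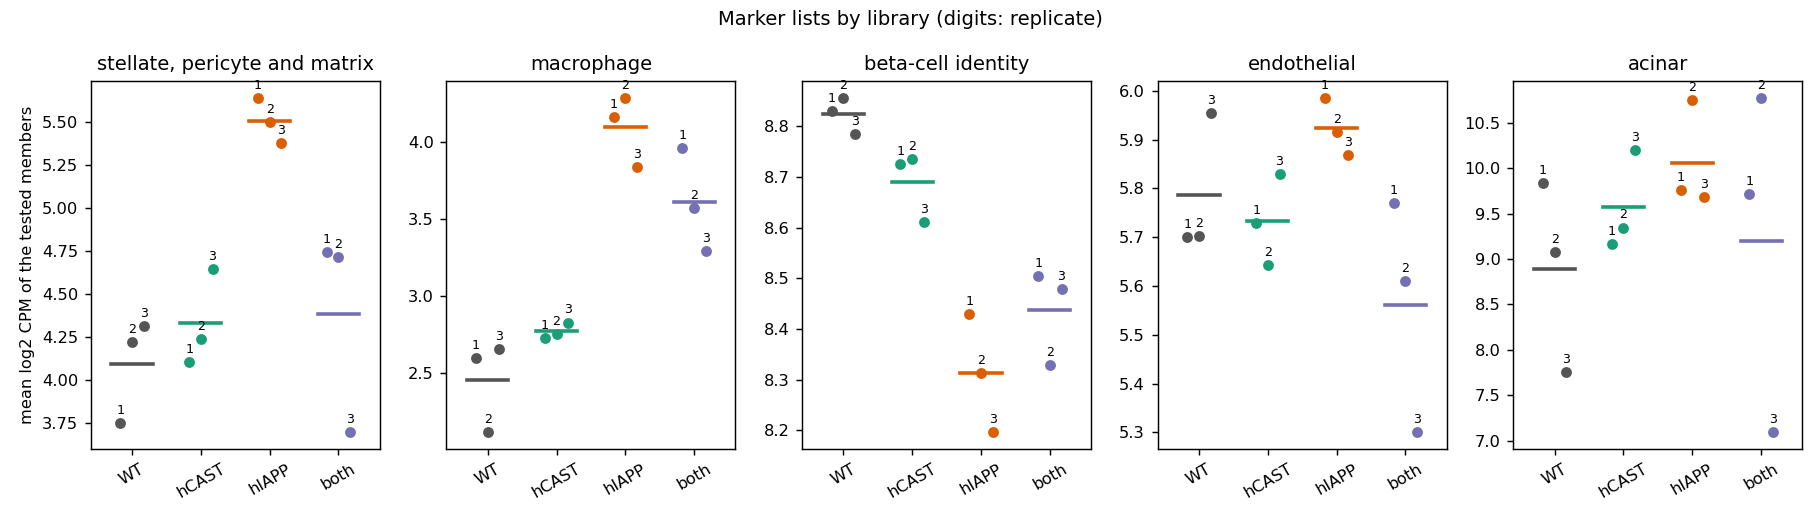
Mean log2 CPM of the tested members of 5 lists in each library, by group, with replicate numbers and a bar at the group mean. The matrix list is at 5.38 to 5.64 in hIAPP and at 3.70 to 4.74 in hIAPP_hCAST, the macrophage list at 3.84 to 4.29 and 3.29 to 3.96, and acinar genes overlap in all groups.

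Some of the largest human IAPP differences had an interaction whose interval was narrow beside the difference and included 0. Sema5a, a semaphorin of axon guidance (chromosome 15, 32244810 to 32696341), had 15.9, 24.5 and 17.2 CPM in WT, 17, 14.5 and 18.1 in hCAST, 773, 757 and 763 in hIAPP, and 820, 759 and 883 in hIAPP_hCAST. The differences were 5.43 ± 0.140 and 5.63 ± 0.133, with an interaction of 0.20 ± 0.167 (95% interval -0.16 to 0.56). For the neighbouring long noncoding RNA gene Snhg18 (32240565 to 32244662) they were 4.07 ± 0.128 and 4.0 ± 0.111, with an interval of the interaction of -0.42 to 0.27. Osbpl1a (chromosome 18), whose product binds oxysterols, had differences of 2.96 ± 0.157 and 2.85 ± 0.131, with an interval of -0.54 to 0.32.

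Among the 8 largest falls, Npy, a neuropeptide of islet and nerve cells, had 53.8, 52.1 and 121 CPM in WT, 47.2, 53.4 and 31.6 in hCAST, 17.4, 15.0 and 11.2 in hIAPP, and 15.3, 28.04 and 13.3 in hIAPP_hCAST. The groups with human IAPP overlap, and the interaction of 1.20 ± 0.567 had an interval of -0.08 to 2.48. Trpm5, a cation channel of beta cells, had 251, 229 and 199 CPM in WT, 190, 194 and 185 in hCAST, 90.7, 81.8 and 40.6 in hIAPP, and 95.1, 83.1 and 67.8 in hIAPP_hCAST. Its difference was -1.67 without calpastatin and -1.21 with it, at an interaction of 0.46 ± 0.350. Cftr and Alb were the 2 of the 8 with negative interactions, at -0.52 ± 0.796 and -0.36 ± 0.496, both within their error of 0. When 1 library was left out, interactions ran from 0.648 to 1.449 for Npy, 0.183 to 0.679 for Trpm5 and -0.77 to -0.062 for Alb.

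The calpastatin difference, which gives the same interaction when taken in hIAPP and in mice without it, was called in 3 genes without human IAPP (0.0195%; 3 higher, 0 lower) and in 28 with it (0.182%; 11 higher, 0.0713%, and 17 lower, 0.11%). Each of these differences stays within 1 range of the numbers in the sample titles; 1 range holds WT and hCAST and the other both human IAPP groups. Leaving out 1 library gave 1 to 4 and 4 to 26 calls, and 0 lower calls with human IAPP remained without hIAPP 1 or hIAPP 2. DESeq2 called 20 (7 higher, 13 lower) and 196 (32 higher, 164 lower). What the numbers in the titles stand for is not given in the sources used here. Tram1l1, a relative of the translocating chain-associated protein of the endoplasmic reticulum, had 2.70, 3.76 and 2.76 CPM in WT and 2.55, 2.60 and 2.00 in hIAPP, against 15.3, 13.3 and 13.4 in hCAST and 15.7, 12.8 and 15.9 in hIAPP_hCAST. It was higher with calpastatin by 2.32 ± 0.173 and 2.63 ± 0.146, both called in each of the 23 alternatives, and its interaction was 0.31 ± 0.224.

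Edil3, a matrix protein that binds integrins, had 45.5, 37.3 and 42.1 CPM in hCAST and 59.8, 41.4 and 36.4 in hIAPP_hCAST, above the 13.5 to 23.8 of the groups without calpastatin. The difference was called with human IAPP (1.45 ± 0.188, adjusted p = 0.0124, edgeR) and not without it (1.11 ± 0.209, adjusted p = 0.257). The call ended without hIAPP 1 (0.0837) or hIAPP 3 (0.0651), and the interaction of 0.34 ± 0.278 did not separate the 2 values. That interaction ran from 0.102 to 0.505 when 1 library was left out. Cdon, a co-receptor of hedgehog signalling, had 57.1, 56.2 and 54.5 CPM in hIAPP_hCAST, 39.3, 40.5 and 39.5 in hIAPP, 51.9, 55.0 and 53.9 in hCAST and 45.0, 49.6 and 44.0 in WT. Its interaction was 0.26 ± 0.0973.

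**Figure D5:**
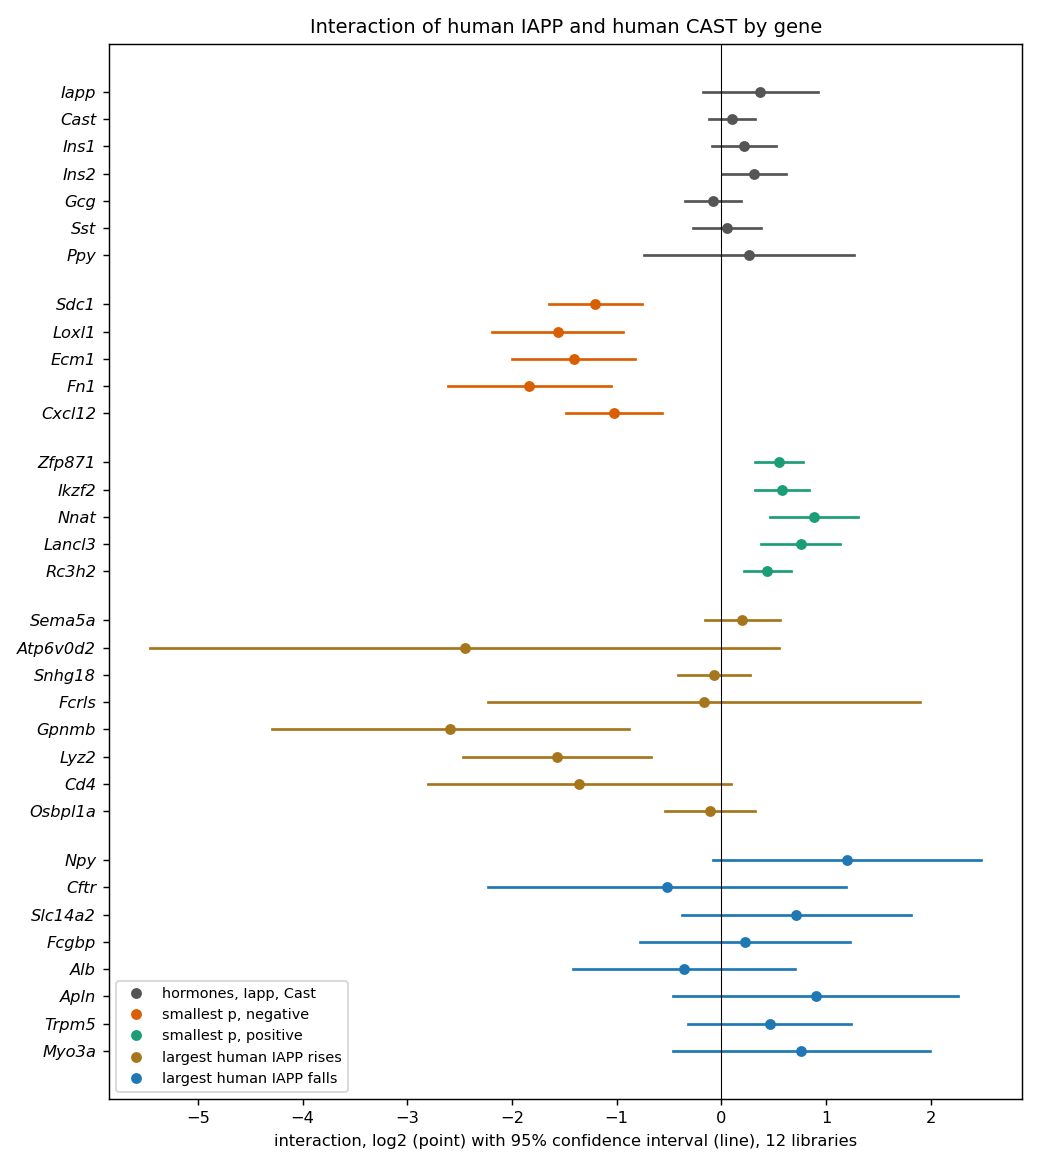
Interaction of named genes on the log2 scale with 95% confidence intervals, by the part of the naming rule that chose them. Intervals of Sdc1, Loxl1, Ecm1, Fn1 and Cxcl12 lie below 0, those of Sema5a, Snhg18 and Osbpl1a include 0, and 0 of the genes passed after adjustment.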

How the data were processed

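RNA of bulk islets was counted in 15 libraries, of which 12 (4 groups of 3) entered the fit. Per the labels' protocols, total RNA was extracted with RNeasy kits and libraries were made with TruSeq, Ribo-Zero and NuGEN Ovation. The deposited table holds the authors' raw read counts per gene symbol, 24060 entries of which 2 repeat a symbol. Per the submitters' processing notes, STAR and HTSeq were used with GRCm38, also named mm10. Annotation, strand setting and the handling of reads with several matches are not given in the sources used here, so overlapping, antisense and near-identical genes are uncertain. The deposited FPKM table was not used. Columns were matched to samples by title, and 0 were left unmapped.

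Rn45s, Lars2 and Mir6236 were left out before scaling. Counts were fitted with edgeR 4.0.16 (R 4.3.3; TMM, default filter by group, robust quasi-likelihood, 1 coefficient per group), leaving 15421 genes at a common biological coefficient of variation of 0.139. P-values were adjusted by Benjamini-Hochberg across the tested genes, with calls below 0.05. A standard error is the log2 difference divided by the square root of F, and n = 3 per group throughout. The script was checked on simulated counts. Alternatives were other scalings and filters, all 15 libraries, DESeq2 1.42.0, limma-voom 3.58.1, an acinar covariate, and leaving out libraries.

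Named genes were the 5 islet hormone genes Ins1, Ins2, Gcg, Sst and Ppy with Cast and Iapp, the 10 largest called interactions in each direction at a mean CPM of at least 1 (filled to 5 per direction by smallest p, as not passing), the 8 largest rises and falls of the mean human IAPP effect, up to 5 genes with the smallest p for calpastatin on either background, and up to 3 members with the smallest interaction p of each list described. Predicted genes and pseudogenes were left out of these except for the lists. Members and the 33 lists were chosen with earlier results of these data known. Gene positions are from GENCODE M21.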

Additional observations from a re-analysis of the deposited data

How the results depend on the processing

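The interaction called 0 genes under 21 of 23 alternatives, 24 with DESeq2 and 2 (Lyz2 and Spp1) without hIAPP_hCAST 1, so leaving out 1 library gave 0 to 2. The count for the mean human IAPP effect, 1596, was 814 to 2286 when 1 library was left out (1046 without WT 3, 929 without hCAST 1, 814 without hCAST 2, 1001 without hIAPP 2, 997 without hIAPP 3), 2438 with voom and 681 without WT 2 and WT 3. Alternatives were listed for 127 named genes, which leave out Hhex, Lepr and Rbp4 of the delta and PP cell list. Of the 127, 117 kept the sign of their interaction in each alternative that could be fitted, and 16 were called in at least 1. The other 10 changed sign, on the log2 scale. With an acinar covariate, Sst was -0.01, Fcrls 0.05, Osbpl1a 0.025 and Cftr 0.044, and with voom Fcrls was 0.68. When 1 library was left out, Fcrls was -0.579 to 1.05, Sst -0.03 to 0.158, Ppy -0.126 to 0.533, Snhg18 -0.153 to 0.023, Osbpl1a -0.214 to 0.016, Iapp 0.021 to 0.525, Gcg -0.139 to -0.033, Sema5a 0.099 to 0.332, Cftr -1.215 to -0.018 and Ptf1a -2.1 to -0.384. Without WT 2 and WT 3, Gcg was 0.04, Sst -0.039 and Ppy -0.221. Without these and hIAPP_hCAST 3, an alternative added after seeing the data, Iapp was -0.006, Gcg 0.018, Sst -0.049, Ppy -0.141, Sema5a -0.005, Osbpl1a 0.077, Cftr 0.209 and Ptf1a 0.061. The cause was not tested. No paired analysis was possible because the numbers in the sample titles are not shared between groups and the replicate numbers only follow accession order. Depth limits WT 2 and WT 3, in which genes of a few CPM rest on few reads.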

Other observations

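H2-Ea-ps, a pseudogene of the MHC class II region, had 68.2 to 75.1 CPM in hCAST and 75.6 to 168 in hIAPP_hCAST, and at most 0.842 in the 6 libraries without the calpastatin transgene. Its calpastatin difference was called on both backgrounds, though not on that of WT without WT 1 (adjusted p = 0.128, edgeR), and its interaction was 1.68 ± 0.972 (95% interval -0.49 to 3.86). It belongs to the MHC class II list, of which 2 of 8 tested members had a positive interaction.

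Of 14 heat shock chaperones, 3 had a positive interaction and 1 a negative one at an unadjusted p below 0.05, against 3.28% and 4.22% of all genes. The 3 were 0 without hCAST 3 and 7 without WT 1. Hsp90aa1, a cytosolic chaperone, had 474, 814 and 530 CPM in WT and 376 to 474 in the other 9 libraries. Cryab, a small heat shock protein, had 8.12, 8.82 and 7.74 in hIAPP and 5.78, 7.13 and 3.05 in hIAPP_hCAST. All 18 tested cytosolic ribosomal protein genes had a negative interaction (median -0.19), against 7925 of all 15421 tested genes. Of the 18, 3 had an unadjusted p below 0.05 against 4.22% of all genes. The mean log2 CPM of the 18 genes was 7.42 in WT 2 and 7.65 to 8.03 in the other 11 libraries. Without WT 2 the median was -0.10 with 0 such genes, without WT 1 it was -0.31 with 11, and without WT 2, WT 3 and hIAPP_hCAST 3 it was 0.01. The part of WT 2 in these values was not tested beyond these fits. Rplp0, an example of the list, had 398, 297 and 343 CPM in WT and 409 to 498 elsewhere.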
